A study of Homo sapiens with 12 samples.

Results

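The miR-30 family was measured here as 5 mature miRNAs, hsa-miR-30a, hsa-miR-30b, hsa-miR-30c, hsa-miR-30d and hsa-miR-30e, of 851 human miRNA names in the deposited value table. They were taken by their names. The cells were Saos-2, a human osteosarcoma line used untransfected as the parental control, and Sa/CD99, the same line stably transfected with CD99, a cell surface glycoprotein, and selected with neomycin. No vector-transfected control is among the samples. Both were profiled on day 0 in basal conditions and on days 7 and 14 of culture in osteogenic medium, so that a difference from day 0 is also one between media, with 2 one-colour Agilent arrays for each cell type and day, 12 arrays in all. The Sa/CD99 arrays of each day are 1 array each of clones 22 and 36, so that 6 Sa/CD99 arrays come from 2 clones. The Saos-2 arrays are replicates 1 and 2, and nothing in the labels says whether these were separate cultures, so the spread between them may be technical.

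MicroRNAs are loaded into Argonaute proteins and pair with target messages mainly through their seed, the bases from position 2 to position 8, which lowers the stability or translation of the target. The miR-30 members share 1 seed and are therefore expected to share many targets. In bone-forming cells they are best known for targeting RUNX2 and SMAD1, a transcription factor and a signal transducer of the osteoblast programme, and in other tissues for regulating epithelial to mesenchymal transition and autophagy. Each mature miRNA is cut from a hairpin that also yields a star strand from the opposite arm, usually at a lower level.

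The mature sequences are shown to make the shared seed and the small differences between members visible. They are RefSeq sequences on GRCh38.p14, 5′ to 3′, with the seed in capitals, and were matched for 3 of the 5 members.
hsa-miR-30a: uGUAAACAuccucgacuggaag
hsa-miR-30e: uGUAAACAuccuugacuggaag
hsa-miR-30c: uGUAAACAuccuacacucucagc
All 3 begin with the same 12 bases. hsa-miR-30a and hsa-miR-30e have 21 of 22 bases in common and differ by C13U, counted from the 5′ end of hsa-miR-30a, while hsa-miR-30c has 17 of its first 22 bases in common with either. The array carried 2 probes for each of the members except hsa-miR-30b, which had 3, and 16 spots for each member. Cross-hybridization between members so alike was not tested. Levels of different probes were not compared with each other.

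hsa-miR-30a lies at chr6:71403595-71403616 on the minus strand of GRCh38.p14 and hsa-miR-30e at chr1:40754371-40754392 on the plus strand. hsa-miR-30c is encoded on both chromosomes, at chr1:40757300-40757322 on the plus strand and at chr6:71377003-71377025 on the minus strand. The MIR30E and MIR30C1 hairpins lie 2837 bases apart inside the protein-coding gene NFYC, and the MIR30A and MIR30C2 hairpins lie 26519 bases apart, outside any annotated host gene in the RefSeq table. The MIR30B and MIR30D hairpins lie 4268 bases apart inside ZFAT. A signal for hsa-miR-30c cannot be assigned to either of its 2 loci.

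The 2 deposited records name the arrays differently, and every result below has to be read with that in view. For each of the 12 columns of the normalized table exactly 1 scanner array detected the same miRNAs and missed the same ones (847 names were compared), and 0 of these 12 arrays were filed under the sample that the column names. Values are given first from the normalized table by its own column labels, then where it changes the result from the scanner signals of the matching arrays and from the scanner arrays as filed. By the table's labels the 4 arrays of day 0 and both Saos-2 arrays of day 7 lay on slide 1 and the other 6 arrays on slide 2, so Sa/CD99 and Saos-2 shared a slide on days 0 and 14 and not on day 7. The 4 arrays labelled day 0 were also the 4 of lowest total signal, 8594 to 11371 against 25232 or more on every other array, and had 133 to 158 miRNAs detected against 158 to 229. Of 7 miRNAs listed as markers of mesenchymal and osteoblast cells, 6 were detected on all 12 arrays and hsa-miR-143 on none, and of the listed markers of blood cells, epithelium, muscle, liver and neurons 0 of 4, 0 of 5, 0 of 3, 0 of 1 and 0 of 1 were detected on any array. In these bulk samples, fewer cells of a type and less RNA per cell cannot be told apart.

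hsa-miR-30a, hsa-miR-30b, hsa-miR-30c and hsa-miR-30d were detected on all 12 arrays and hsa-miR-30e on 3. A miRNA entered the tests where both arrays of at least 1 group detected it, which left 219 miRNAs and 4 of the 5 members. The total gene signal was up to 13.1 times its error for hsa-miR-30a, 6.5 to 12.3 times for hsa-miR-30b, 5.2 to 9.4 times for hsa-miR-30c and 13.8 to 14.0 times for hsa-miR-30d. On the 3 arrays that detected hsa-miR-30e it was 4.2 to 6.6 times its error.

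**Figure D1:**
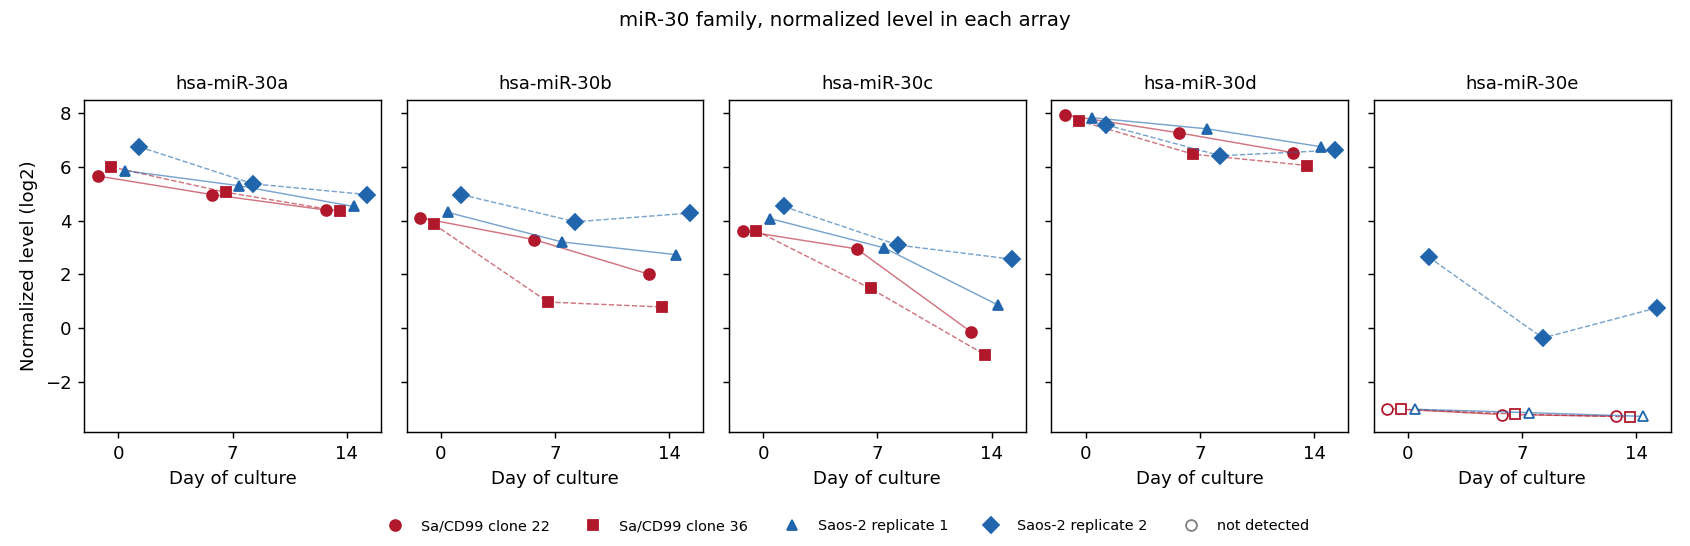
Normalized level (log2) of each miR-30 member in each of the 12 arrays against the day of culture, by the labels of the value table; each point is 1 array, lines join the arrays of a clone or replicate number, and open points are undetected values at the floor of their column. hsa-miR-30a to hsa-miR-30d stand lower on day 14 than on day 0 in both cell types, and hsa-miR-30e is detected in Saos-2 replicate 2 alone.

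hsa-miR-30a in Saos-2 stood at a normalized log2 level of 5.86 and 6.75 on day 0, 5.29 and 5.37 on day 7 and 4.52 and 4.97 on day 14, in replicates 1 and 2. In Sa/CD99 clones 22 and 36 it stood at 5.66 and 6.00 on day 0, 4.97 and 5.05 on day 7 and 4.39 and 4.35 on day 14. The days did not overlap within either cell type. The cell types overlapped on day 0, where clone 36 stood above Saos-2 replicate 1, and on the other days both clones stood below both Saos-2 replicates.

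hsa-miR-30b stood at 4.31 and 4.97 on day 0, 3.20 and 3.95 on day 7 and 2.73 and 4.28 on day 14 in Saos-2 replicates 1 and 2. In clones 22 and 36 it stood at 4.10 and 3.86 on day 0, 3.29 and 0.96 on day 7 and 2.0 and 0.78 on day 14. Both clones were below both Saos-2 replicates on days 0 and 14, and on day 7 clone 22 stood above Saos-2 replicate 1. The 2 clones differed by 2.32 on day 7, the widest gap between the arrays of 1 group for any of the 4 tested members.

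hsa-miR-30c, described as a regulator of RUNX2, stood at 4.07 and 4.52 on day 0, 2.98 and 3.09 on day 7 and 0.84 and 2.56 on day 14 in Saos-2 replicates 1 and 2. In clones 22 and 36 it stood at 3.62 and 3.62 on day 0, 2.94 and 1.47 on day 7 and -0.15 and -1.0 on day 14. Both clones were below both Saos-2 replicates on each of the 3 days, and within each cell type the days did not overlap.

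hsa-miR-30d stood at 7.83 and 7.56 on day 0, 7.42 and 6.41 on day 7 and 6.75 and 6.62 on day 14 in Saos-2 replicates 1 and 2. In clones 22 and 36 it stood at 7.93 and 7.72 on day 0, 7.26 and 6.47 on day 7 and 6.52 and 6.05 on day 14. The cell types overlapped on days 0 and 7, and on day 14 both clones stood below both Saos-2 replicates.

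hsa-miR-30e was detected in Saos-2 replicate 2 on all 3 days, at 2.64, -0.38 and 0.75 on days 0, 7 and 14, and on 0 of the other 9 arrays. No group had it on both arrays, so it was not tested and no fold is given. Its signal on those arrays was 3.85, 6.56 and 8.35, against 0.1 that the scanner software gives to an undetected miRNA. Before any normalization hsa-miR-30a, hsa-miR-30b and hsa-miR-30c were also higher on these 3 arrays than on replicate 1 of the same day. The total gene signal of hsa-miR-30a in Saos-2 replicates 1 and 2 was 32.1 and 79.2 on day 0, 29.5 and 81.4 on day 7 and 28.0 and 63.2 on day 14. For hsa-miR-30b it was 9.45 and 22.4, then 7.34 and 31.1, then 9.26 and 44.2, and for hsa-miR-30c it was 7.22 and 15.7, then 6.13 and 18.2, then 5.39 and 14.9. Replicate 2 was thus above replicate 1 by 1.12 to 2.26 on the log2 scale for these 3 members on each day, and by 0.17 to 0.84 for hsa-miR-30d.

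Replicate 2 arrays were brighter in general, which was measured beside this. Over all miRNAs detected on both arrays the median log2 signal difference between replicates 2 and 1 was 0.55 on day 0, 1.37 on day 7 and 0.59 on day 14, and 77 of 104 miRNAs (74.0%) were higher in replicate 2 on all 3 days. For 21 of these 104 the difference was over 1 on all 3 days, and hsa-miR-30a, hsa-miR-30b and hsa-miR-30c were among the 21. In the normalized table the median difference was 0.00, -0.04 and -0.22, and hsa-miR-30a, hsa-miR-30b and hsa-miR-30c were still higher in replicate 2 on each day, by 0.07 to 1.72. Of all miRNAs on the 6 Saos-2 arrays, 28 of 105 (26.7%) were higher in replicate 2 on all 3 days of the table. The detection pattern of hsa-miR-30e was shared exactly by 7 other miRNAs, hsa-miR-130a, hsa-miR-15a, hsa-miR-181a*, hsa-miR-31*, hsa-miR-324-5p, hsa-miR-374a and hsa-miR-769-5p, of 19 miRNAs detected on exactly 3 arrays. What Saos-2 replicate 2 shares across days is not given in the labels, and its part in these differences was not tested. As filed, the 3 arrays with hsa-miR-30e were Sa/CD99 clone 36 on days 7 and 14 and Saos-2 replicate 1 on day 14.

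The first comparison asked whether miR-30 members differed between Sa/CD99 and Saos-2 on the same day, here by the labels of the value table. At the threshold of the study's Methods, an unadjusted limma p of at most 0.01 and a change of at least 1.4-fold, 0 of the 4 tested members were called on day 0, 0 on day 7 and 0 on day 14, against 2.74%, 3.2% and 9.13% of all 219 miRNAs tested. At an unadjusted p under 0.05 the members numbered 0, 0 and 2, against 3.2%, 6.85% and 18.3% of all miRNAs. The difference of hsa-miR-30c on day 14 was -2.27 on the log2 scale (SE 0.67, n = 2 and 2, limma adjusted p = 0.103), and its unadjusted p rounds to 0.01 and lies just above that threshold. It was called with the replicate number as a block (adjusted p = 0.102), without either Sa/CD99 array of day 7, and at -3.13 without Saos-2 replicate 1 of day 14. Without Saos-2 replicate 2 on all days it was -1.41 (adjusted p = 0.388) and was not called. For hsa-miR-30b on day 14 the difference was -2.11 (SE 0.85, limma adjusted p = 0.231, 95% interval -4.08 to -0.14). It moved to -1.34 without Saos-2 replicate 2. Both were smaller on the matching arrays under the same labels. With no normalization the mean log2 signals of Sa/CD99 and Saos-2 were 2.38 and 3.16 for hsa-miR-30c and 3.16 and 4.34 for hsa-miR-30b. The median difference of the 4 members was -1.25 in the table, -0.49 with robust multi-array averaging and -0.575 with no normalization. With the signals scaled to the 75th percentile it was -0.33, and no member had an unadjusted p under 0.05 in these alternatives.

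The differences of the other members had intervals that included 0. So did those of hsa-miR-30b on days 0 and 7, -0.655 and -1.45 (SE 0.85), and of hsa-miR-30c, -0.68 and -0.83 (SE 0.67). Leaving out 1 array, the day 7 difference ran from -2.615 to -0.29 for hsa-miR-30b and from -1.56 to -0.09 for hsa-miR-30c. hsa-miR-30a differed by -0.48 on day 0, -0.32 on day 7 and -0.38 on day 14, each with an SE of 0.38. On day 0 this was -0.92 without Saos-2 replicate 1 and -0.03 without replicate 2, and on day 14 it was -0.60 and -0.16 without replicates 1 and 2. hsa-miR-30d differed by 0.13, -0.05 and -0.40, with an SE of 0.44. The intervals of hsa-miR-30a on day 14, -1.25 to 0.49, and of hsa-miR-30d, -1.42 to 0.63, do not exclude a change of 1.4-fold in either direction.

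Averaged over the 3 days by the table's labels, hsa-miR-30b had a log2 difference between Sa/CD99 and Saos-2 of -1.41 (SE 0.49, limma adjusted p = 0.264) and hsa-miR-30c one of -1.26 (SE 0.39, adjusted p = 0.188). hsa-miR-30a had -0.39 (SE 0.22, adjusted p = 0.495) and hsa-miR-30d -0.11 (SE 0.26, adjusted p = 0.863). None of the 4 was called at an adjusted p of 0.05, against 2.74% of all miRNAs, and 2 had an unadjusted p under 0.05, against 12.8%. The fit counts the arrays of a clone on the 3 days as independent, while Sa/CD99 holds only 2 clones. With the replicate number as a block 0 members were called, against 3 of all 219 miRNAs. The median of the 4 members was -0.825. On the matching arrays it was -0.56 with robust multi-array averaging, -0.47 with scaling to the 75th percentile and -0.70 with no normalization. Without Saos-2 replicate 2 on all days hsa-miR-30b had -0.91 and hsa-miR-30c -0.88, and 0 members had an unadjusted p under 0.05, while without Saos-2 replicate 1 of day 14 hsa-miR-30c was called at -1.55 (adjusted p = 0.0388). Over days 0 and 14 alone, on which both cell types shared a slide, hsa-miR-30b had -1.38 (adjusted p = 0.33) and hsa-miR-30c -1.48 (adjusted p = 0.186). All 4 members were negative on the day average, beside a median of 0.10 over all 219 miRNAs. Yet hsa-miR-30d turned to 0.03 without Sa/CD99 clone 36 of day 7 and to 0.06 without Saos-2 replicate 1 of day 7. It turned to 0.05 with the signals scaled to the 75th percentile. Over the 100 miRNAs detected on all arrays, the set that holds the 4 members, the median on the day average was -0.09. On day 14 the median of that set was -0.49. There hsa-miR-30b (-2.11) and hsa-miR-30c (-2.27) stood below it, and hsa-miR-30a (-0.38) and hsa-miR-30d (-0.40) stood above it. The 4 members share arrays and are not independent.

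The direction of these differences depends on which record names the arrays. With the scanner arrays as filed, processed by robust multi-array averaging (RMA), the differences of hsa-miR-30a were 1.42, 1.25 and 1.92 on days 0, 7 and 14, and 1 member, hsa-miR-30a on day 14, was called higher in Sa/CD99, where 5.63% of 213 miRNAs were called. On the day average 2 members were called higher in Sa/CD99 by that record, hsa-miR-30a at 1.53 and hsa-miR-30d at 1.02, where 41.3% of all miRNAs were called. Both calls on the day average and that on day 14 were lost with the same arrays scaled to the 75th percentile, where hsa-miR-30a had 0.55 and hsa-miR-30d 0.32 on the day average and hsa-miR-30a had 0.83 on day 14. As filed, the 6 Sa/CD99 arrays lay on slide 1 and the 6 Saos-2 arrays on slide 2, and the effect of the slide cannot be told apart from that of the cell type there.

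**Figure D2:**
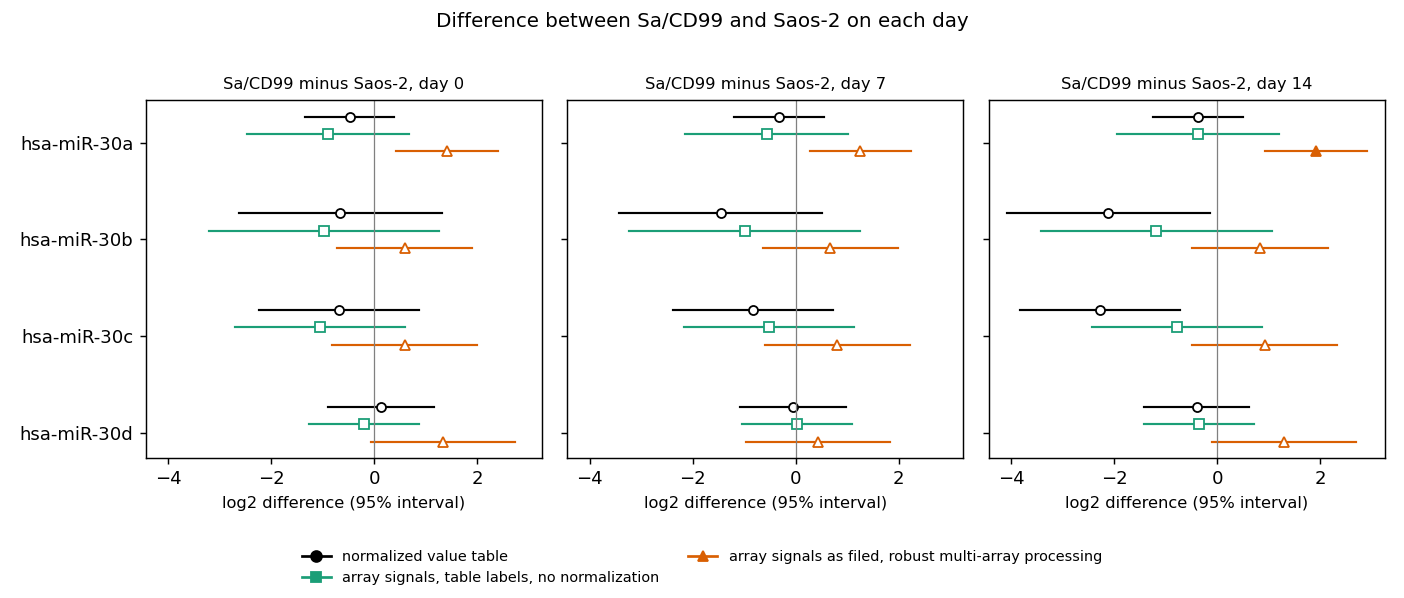
Log2 difference between Sa/CD99 and Saos-2 for the 4 tested members on days 0, 7 and 14, with 95% intervals, from the normalized value table, from the unnormalized signals of the matching arrays under the same labels, and from the scanner arrays as filed. Filled points passed the threshold; by the table's labels none did, and as filed the signs were positive.

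The second comparison followed each cell type through the culture, again by the labels of the value table. All arrays of day 0 lay on slide 1 and all arrays of day 14 on slide 2, so the day, the medium, the slide and the total signal of the arrays cannot be told apart in the differences between days 14 and 0, and the same holds for days 7 and 0 in Sa/CD99. In Saos-2, hsa-miR-30a fell from day 0 to day 14 by 1.56 on the log2 scale (SE 0.38, n = 2 and 2, limma adjusted p = 0.0114) and hsa-miR-30c fell by 2.6 (SE 0.67, adjusted p = 0.015). hsa-miR-30b had -1.14 (SE 0.85, adjusted p = 0.278) and hsa-miR-30d -1.01 (SE 0.44, adjusted p = 0.0801). The 2 of 4 members called stand against 55.7% of all 219 miRNAs called. In Sa/CD99 all 4 were called lower on day 14 than on day 0, where 74.4% of all miRNAs were called. There hsa-miR-30a fell by 1.46 (SE 0.38, adjusted p = 0.00931), hsa-miR-30b fell by 2.59 (SE 0.85, adjusted p = 0.0241), hsa-miR-30c fell by 4.19 (SE 0.67, adjusted p = 0.00109) and hsa-miR-30d fell by 1.54 (SE 0.44, adjusted p = 0.0136).

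With so many miRNAs called, these counts say nothing particular of the members. Over the 100 miRNAs detected on all 12 arrays, the set to which the 4 members belong, the median difference between days 14 and 0 was -1.15 in Saos-2 and -1.57 in Sa/CD99, and the median of the 4 members was -1.35 and -2.06. Leaving out single arrays took calls away or added them. In Saos-2 both calls were lost without replicate 2 of day 0 (hsa-miR-30a at -1.11, hsa-miR-30c at -2.37) and without replicate 1 of day 14 (-1.34 and -1.74). Leaving out either Saos-2 array of day 7, which does not enter this difference, added a call there. hsa-miR-30b in Saos-2 had -0.36 without replicate 1 of day 14, -0.81 without replicate 2 of day 0 and -1.91 without replicate 2 of day 14, and was not called. In Sa/CD99 calls were lost without either array of day 0 and without clone 36 of day 14, that of hsa-miR-30b among them. The call of hsa-miR-30b was also lost without Saos-2 replicate 2 on all days, which leaves the difference itself as it was. Leaving out 1 array at a time, the difference of hsa-miR-30b in Sa/CD99 ran from -3.20 to -1.98.

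The steps between neighbouring days were smaller. From day 0 to day 7, 0 of 4 members were called in Saos-2 (36.5% of all miRNAs) and 0 of 4 in Sa/CD99 (32% of all miRNAs), with differences from -0.78 to -1.27 and from -0.82 to -1.86. In Sa/CD99 these moved with the clone of day 7, as hsa-miR-30b had -3.02 without clone 22, where it was called, and -0.70 without clone 36, and hsa-miR-30c had -2.15 and -0.68. In Saos-2, hsa-miR-30b had -0.68 without replicate 1 of day 7, hsa-miR-30d was called at -1.28 without that array, and hsa-miR-30a was called at -1.42 without replicate 1 of day 0. At an unadjusted p under 0.05 these counts were 1 and 0, against 50.2% and 42.5% of all miRNAs. From day 7 to day 14 no member was called in Saos-2, where 0% of all miRNAs were called by limma, 19 of them (8.68%) with an unadjusted p under 0.05, 0 members among these. In Sa/CD99, where the arrays of days 7 and 14 shared slide 2, hsa-miR-30c fell by 2.78 (SE 0.67, adjusted p = 0.0277), the 1 of 4 members called against 19.6% of all miRNAs. That call was lost without any of clone 22 of day 7 (-2.04), clone 22 of day 14 (-3.20) or clone 36 of day 14 (-2.36). On the matching arrays under the same labels it was lost with RMA, with scaling to the 75th percentile and with no normalization. In these, 36, 53 and 22 of all 219 miRNAs were called. With no normalization the mean log2 signal of hsa-miR-30c in Sa/CD99 was 2.88 on day 7 and 2.38 on day 14.

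Whether the change over days differed between the cell types was tested as an interaction of cell type and day. None of the 4 members passed an adjusted p of 0.05, against 1.83% of all miRNAs, and none had an unadjusted p under 0.05, against 11.9%. The adjusted p was 0.997 for hsa-miR-30a, 0.944 for hsa-miR-30b, 0.77 for hsa-miR-30c and 0.958 for hsa-miR-30d. The larger fall of hsa-miR-30c in Sa/CD99 than in Saos-2 is thus not shown to be a difference between the cell types.

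Whether a fall with the day was seen, and its size, depended on the normalization between arrays. Which scale is right was not tested. On the matching arrays before normalization, the total gene signal of hsa-miR-30c in clones 22 and 36 was 4.89 and 5.38 on day 0, 9.12 and 5.97 on day 7 and 5.15 and 5.27 on day 14. The day 14 signals lay between the day 0 signals of the clones, while the table values of the same arrays fell by 4.19 on the log2 scale. For hsa-miR-30d the signal was 147 and 101 on day 0 and 115 and 123 on day 14 in the clones, and 131 and 148 on day 0 and 114 and 204 on day 14 in Saos-2. hsa-miR-30a in the clones was at 24.8 and 29.8 on day 0 and 27.5 and 38.6 on day 14, and hsa-miR-30b at 8.38 and 6.57 and then 9.97 and 8.0. Days 0 and 14 overlapped in signal for all 4 tested members in both cell types.

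**Figure D3:**
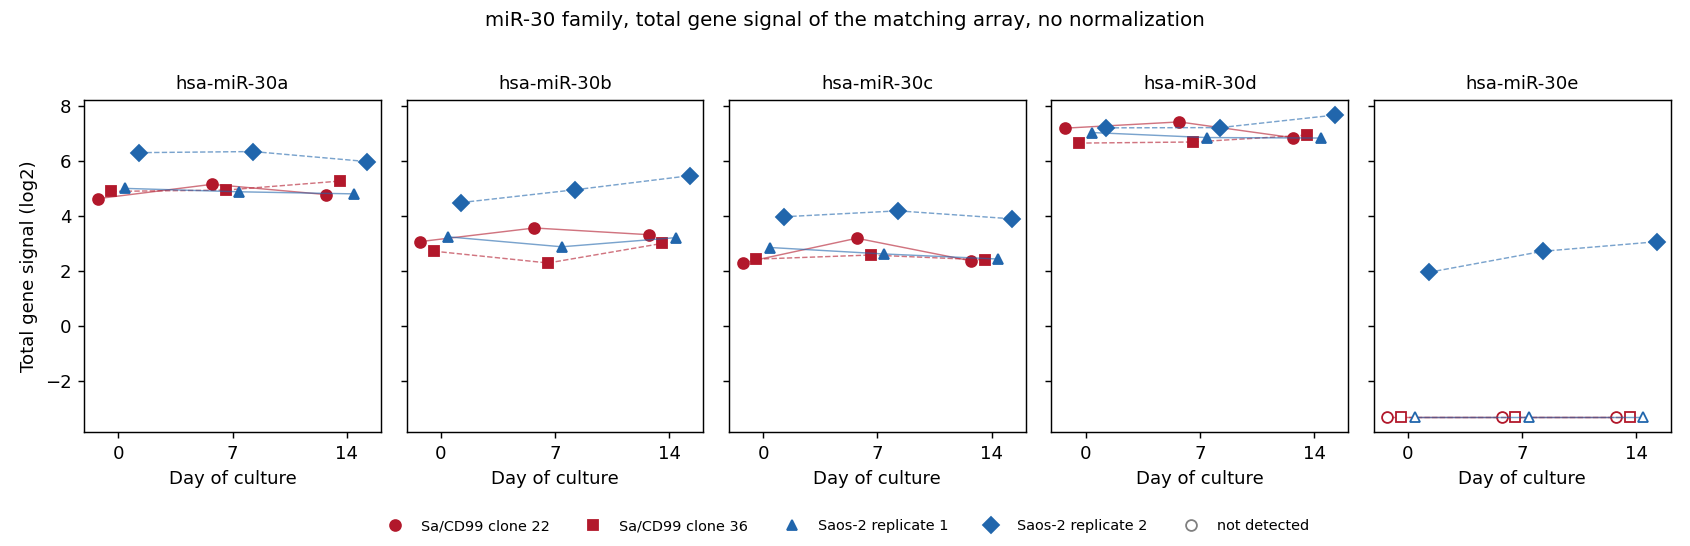
Total gene signal (log2) of each miR-30 member on the array that matches each column of the value table, with no normalization between arrays, against the day of culture; each point is 1 array and open points are undetected. Signals of days 0 and 14 overlap in both cell types for hsa-miR-30a to hsa-miR-30d, and Saos-2 replicate 2 stands above the other arrays for hsa-miR-30a, hsa-miR-30b, hsa-miR-30c and hsa-miR-30e.

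Without normalization the difference between days 14 and 0 was -0.26 for hsa-miR-30a, 0.47 for hsa-miR-30b, -0.25 for hsa-miR-30c and 0.13 for hsa-miR-30d in Saos-2, and 0.26, 0.27, 0.02 and -0.03 in Sa/CD99, with 0 of 4 called in either. The median of all 219 miRNAs was 0.66 in Saos-2 and 0.99 in Sa/CD99 on that scale, against -0.47 and -0.64 in the normalized table. Against the 100 miRNAs detected on all arrays, hsa-miR-30b and hsa-miR-30d in Saos-2 and hsa-miR-30a and hsa-miR-30d in Sa/CD99 stood above the median of the table. With the signals of the matching arrays scaled to the 75th percentile the 8 differences were all negative, from -0.03 to -0.77, and none was called, while the value table itself scaled in this way left 1 member called in each cell type, where 93 of all 219 miRNAs were called in Saos-2 and 136 in Sa/CD99. With RMA on the matching arrays they were all negative, from -0.67 to -2.06, and 3 members in Saos-2 and 2 in Sa/CD99 were called, against 58.9% and 72.1% of all miRNAs. The share of called miRNAs that were higher on day 14 was 51.6% in Saos-2 and 49.7% in Sa/CD99 in the table, 78.0% and 73.6% with the signals scaled to the 75th percentile, and 88.8% and 87.3% with no normalization.

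The normalized scale was not equally long on all arrays at its low end. The lowest detected signal was alike on all arrays, from 1.17 to 1.61, while the lowest detected value of the table was between 0.75 and 2.39 on the 4 arrays of day 0 and between -1.61 and -2.57 on the 4 of day 14. In clone 22 the hsa-miR-30c signals of 4.89 on day 0 and 5.15 on day 14 stood at 3.62 and -0.15 in the table. As filed, 0 of 4 members were called between days 14 and 0 in either cell type, and hsa-miR-30a in Sa/CD99 was 1.16 higher on day 14 with RMA.

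**Figure D4:**
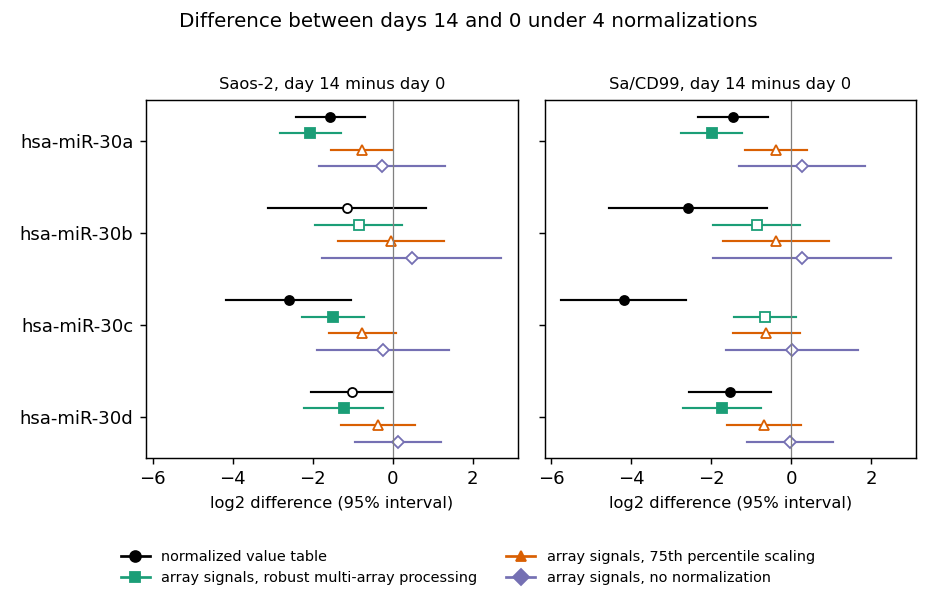
Log2 difference between days 14 and 0 in Saos-2 and Sa/CD99 for the 4 tested members, with 95% intervals, under the labels of the value table and 4 normalizations; filled points have an adjusted p of at most 0.05. From the value table to no normalization the differences of hsa-miR-30c in Sa/CD99 run from -4.19 to 0.02.

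The members varied together. Over the 12 arrays of the normalized table the Pearson correlation between pairs of the 4 tested members was from 0.69, for hsa-miR-30b and hsa-miR-30d, to 0.89, for hsa-miR-30a and hsa-miR-30c. The arrays share the day, slide and total signal described above, so this is a description with no test. The miRNAs most like the mean level of the 5 members were hsa-miR-1274a (r = 0.952), hsa-miR-27a (0.949), hsa-miR-130b (0.944), hsa-miR-17 (0.935) and hsa-miR-16 (0.926), of 96 candidates detected on all 12 arrays whose median was 0.651. Without hsa-miR-30e, whose floor values enter that mean, the order was hsa-miR-301a (0.991), hsa-miR-181a (0.945), hsa-miR-361-5p (0.943), hsa-miR-181b (0.941) and hsa-miR-196b (0.935), against a median of 0.779.

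The star strands from the opposite arm of the hairpins are shown because 3 of the 6 on the array were detected. Their seeds, in capitals, differ from the family seed, and hsa-miR-30c-1* and hsa-miR-30c-2* share 1 seed.
hsa-miR-30a*: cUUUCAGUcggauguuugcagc
hsa-miR-30c-1*: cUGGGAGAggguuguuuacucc
hsa-miR-30c-2*: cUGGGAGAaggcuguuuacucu
hsa-miR-30a* was detected on 8 of 12 arrays, hsa-miR-30c-1* and hsa-miR-30c-2* on the same 4, and hsa-miR-30b*, hsa-miR-30d* and hsa-miR-30e* on none. hsa-miR-30a* stood at 3.27 and 4.07 on day 0 and 0.84 and 0.37 on day 7 in Saos-2 and was undetected on both arrays of day 14. In clones 22 and 36 it stood at 2.94 and 4.04 on day 0, at 0.12 in clone 22 alone on day 7 and at -1.88 in clone 36 alone on day 14. On the scale of the table, hsa-miR-30a* would be 53.1-fold lower on day 14 than on day 0 in Saos-2. That takes its level on day 14 as the lowest value detected for any miRNA on those arrays. hsa-miR-30a* entered the tests only through groups in which it was high, both groups of day 0 and Saos-2 on day 7. The later values include floors, so no test is given. On the signals of the matching arrays the same figure was 5.08-fold, with signals of 4.09 and 11.9 on day 0. Neither is a lower bound, as the lowest signal at which hsa-miR-30a* itself was detected was 2.63. In Sa/CD99, 2 of 2 arrays detected it on day 0 and 1 of 2 on each later day. As filed, hsa-miR-30a* was detected on all 6 Sa/CD99 arrays, with signals of 2.63 and 2.97 on day 0 and 7.19 and 11.9 on day 14, and on no Saos-2 array of days 0 and 14, so the lower level on day 14 was not seen under that record.

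hsa-miR-30c-2* was detected at 0.39 and 0.75 in clones 22 and 36 on day 14, at -0.12 in Saos-2 replicate 1 on day 14 and at -2.16 in Saos-2 replicate 2 on day 7. It was undetected in Sa/CD99 on days 0 and 7. It entered the tests only through the Sa/CD99 arrays of day 14, where it was high, so no test is given. Undetected arrays were set at the lowest value detected there for any miRNA. Against day 7 in Sa/CD99, day 14 was then 2.16-fold higher on the scale of the table. On the signals, which were 5.83 and 7.76 on day 14, it was 4.68-fold higher. Against day 0 no fold is given on the scale of the table, whose lowest detected values on day 0 lie above the day 14 mean of 0.57. On the signals the figure against day 0 was 4.9-fold. None of these is a lower bound, as the lowest signal at which hsa-miR-30c-2* itself was detected was 3.35. As filed, neither Sa/CD99 array of day 14 detected it, while both Saos-2 arrays of day 0 did, as did Saos-2 replicate 2 and Sa/CD99 clone 36 of day 7, so the higher level on day 14 was not seen under that record. The MIR30C1 star strand, hsa-miR-30c-1*, had signals of 1.39 to 2.79 on its 4 arrays.

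**Figure D5:**
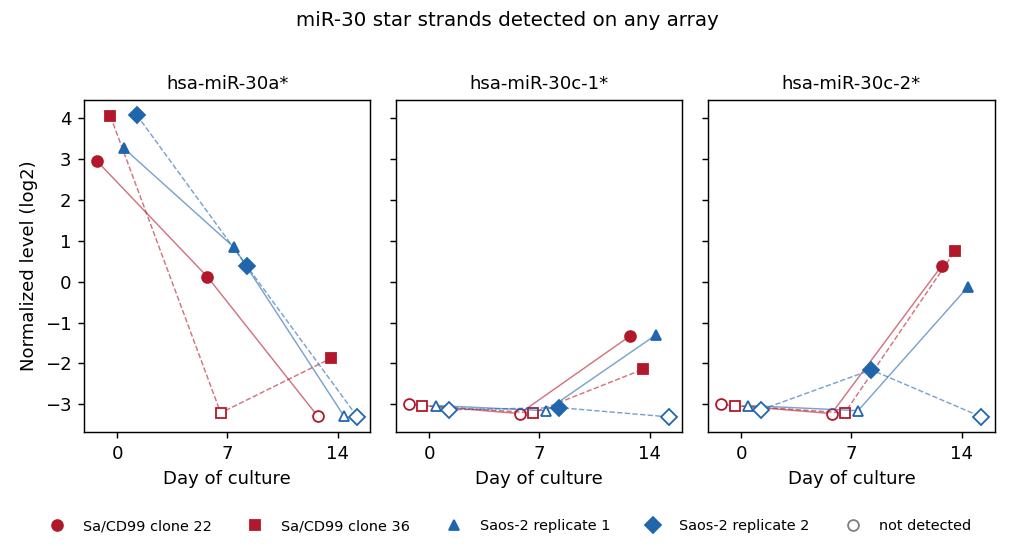
Normalized level (log2) of the 3 miR-30 star strands detected on any array against the day of culture, by the labels of the value table; each point is 1 array and open points are undetected values at the floor. hsa-miR-30a* is detected on all 4 arrays of day 0 and on 1 of 4 on day 14, and hsa-miR-30c-2* on 3 of 4 arrays of day 14 and on none of day 0.

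Other miRNAs described as targeting RUNX2 were taken as a list of 10. Of these, 8 were detected on no array, beside 589 of all 851 miRNAs, hsa-miR-23a was detected on all 12 arrays and hsa-miR-34c-5p on 5. By the labels of the table hsa-miR-23a fell between days 0 and 14 by 1.57 in Saos-2 (SE 0.38, limma adjusted p = 0.0114) and fell by 2.1 in Sa/CD99 (SE 0.38, adjusted p = 0.00178). It differed between the cell types by -0.03, 0.29 and -0.56 on days 0, 7 and 14, with 0 calls and no unadjusted p under 0.05. The signal of hsa-miR-23a on the matching arrays, by the table's labels, went from 157 and 177 on day 0 to 93.5 and 166 on day 14 in Saos-2. In Sa/CD99 it went from 137 and 130 to 76.2 and 87.2. As filed, the signal ran the other way, from 76.2 and 93.5 on day 0 to 166 and 128 on day 14 in Saos-2. In Sa/CD99 it then went from 108 and 137 to 130 and 177. hsa-miR-34c-5p stood at 0.78 and 1.39 on day 7 and -1.0 and 1.39 on day 14 in clones 22 and 36, and at -1.10 in Saos-2 replicate 2 on day 7, and was undetected on the other 7 arrays. It entered the tests only through the Sa/CD99 arrays of days 7 and 14, so no test is given. As filed, 4 of its 5 arrays were Saos-2 arrays and 1 was Sa/CD99 clone 36 of day 7.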

How the data were processed

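Total RNA from Saos-2 and Sa/CD99 cells was labelled and hybridized by the authors to one-colour Agilent human miRNA arrays. The scanner files hold the intensity per spot and the total gene signal with its error, as deposited from Feature Extraction (10.7.3.1 per the file headers). The value table holds log2 values normalized by the authors, and the submitters' processing notes name RMA. Log2 total gene signal, quantile-normalized over 961 features with controls, rebuilt its detected values to a median absolute difference of 0.033. Values at a column's minimum were taken as undetected.

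The table was analysed by its own column labels. Each column was also matched to the scanner array with the same detected miRNAs, and that array was used under the table's label and under its filed label. A single limma fit (3.58.1, R 4.3.3) covered the 6 groups, with 6 residual degrees of freedom, over the 219 miRNAs that some group had on both of its arrays. Differences between cell types on 1 day were called where the unadjusted p did not exceed 0.01 and the change reached 1.4-fold, and all others where the p adjusted by Benjamini-Hochberg did not exceed 0.05. The fit was tested on simulated data. P-values measure only the spread between these samples. Named genes were the 5 members, their star strands, a RUNX2-targeting list and the miRNAs most alike over arrays. The members and lists were chosen with earlier results of these data known. Sa/CD99 arrays of 1 number are 1 clone, and deviations of same-numbered arrays correlated at 0.034 to 0.184 in Sa/CD99 and 0.18 to 0.203 in Saos-2. Alternatives were RMA-type processing, 75th percentile scaling, quantile or no normalization, other filters, the replicate block and leaving out arrays.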

Additional observations from a re-analysis of the deposited data

How the results depend on the processing

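Over all alternatives, 861 of the values of single members kept their direction and their side of the threshold. A change of sign was counted first, whatever the side of the threshold, and 95 values changed sign. With the sign kept, 23 passed the threshold newly and 37 no longer passed it. Without the alternatives that take the scanner arrays as filed these counts were 838, 33, 23 and 34. Leaving out an array cannot move a difference between groups that do not hold that array. The direction of many of these values was thus fixed in advance. The adjusted p of the interaction has no direction and was counted by the threshold alone. The causes of the changes were not tested. With the scanner arrays as filed and RMA-type processing, differences between the cell types that changed sign were 1.417 (30a), 0.59 (30b) and 0.597 (30c) on day 0, 1.254 (30a), 0.676 (30b), 0.805 (30c) and 0.429 (30d) on day 7, 1.917 (30a), 0.838 (30b), 0.924 (30c) and 1.296 (30d) on day 14, 1.529 (30a), 0.701 (30b), 0.775 (30c) and 1.02 (30d) over all days. With the scanner arrays as filed and RMA-type processing, differences between days that changed sign were 0.446 (30a), 0.174 (30b), 0.218 (30c) and 0.169 (30d) in Saos-2 between days 7 and 0, 0.66 (30a), 0.623 (30b) and 0.491 (30c) in Saos-2 between days 14 and 0, 0.213 (30a), 0.449 (30b) and 0.273 (30c) in Saos-2 between days 14 and 7, 0.283 (30a), 0.26 (30b) and 0.425 (30c) in Sa/CD99 between days 7 and 0, 1.16 (30a), 0.871 (30b) and 0.817 (30c) in Sa/CD99 between days 14 and 0, 0.877 (30a), 0.611 (30b), 0.392 (30c) and 0.569 (30d) in Sa/CD99 between days 14 and 7. With the arrays as filed, scaled to the 75th percentile, differences between the cell types that changed sign were 0.232 (30a) and 0.324 (30c) on day 0, 0.592 (30a), 0.946 (30b), 0.853 (30c) and 0.071 (30d) on day 7, 0.83 (30a), 0.417 (30b), 0.654 (30c) and 0.439 (30d) on day 14, 0.551 (30a), 0.446 (30b), 0.61 (30c) and 0.321 (30d) over all days. With the arrays as filed, scaled to the 75th percentile, differences between days that changed sign were 0.155 (30c) in Saos-2 between days 14 and 0, 0.071 (30a), 0.416 (30b) and 0.263 (30c) in Saos-2 between days 14 and 7, 0.275 (30a), 0.482 (30b) and 0.421 (30c) in Sa/CD99 between days 7 and 0, 0.583 (30a), 0.369 (30b) and 0.484 (30c) in Sa/CD99 between days 14 and 0, 0.308 (30a), 0.063 (30c) and 0.187 (30d) in Sa/CD99 between days 14 and 7. With the labels of the table and RMA-type processing, differences between days that changed sign were 0.081 (30b) in Saos-2 between days 14 and 7, 0.027 (30c) in Sa/CD99 between days 7 and 0. With the labels of the table and scaling of the signals to the 75th percentile, differences between the cell types that changed sign were 0.086 (30d) on day 7, 0.051 (30d) over all days. With the labels of the table and scaling of the signals to the 75th percentile, differences between days that changed sign were 0.218 (30b) and 0.014 (30d) in Saos-2 between days 14 and 7, 0.21 (30b) in Sa/CD99 between days 14 and 7. With the labels of the table and no normalization, differences between the cell types that changed sign were -0.198 (30d) on day 0, 0.023 (30d) on day 7. With the labels of the table and no normalization, differences between days that changed sign were 0.052 (30b) in Saos-2 between days 7 and 0, 0.474 (30b) and 0.132 (30d) in Saos-2 between days 14 and 0, 0.422 (30b) and 0.218 (30d) in Saos-2 between days 14 and 7, 0.285 (30a), 0.033 (30b), 0.524 (30c) and 0.134 (30d) in Sa/CD99 between days 7 and 0, 0.262 (30a), 0.268 (30b) and 0.023 (30c) in Sa/CD99 between days 14 and 0, 0.235 (30b) in Sa/CD99 between days 14 and 7. With the value table scaled to the 75th percentile, differences between days that changed sign were 0.009 (30b) in Saos-2 between days 14 and 7. Without Saos-2 replicate 2, differences between the cell types that changed sign were -0.005 (30d) on day 0. The number of members called moved as follows. As filed with RMA-type processing it was 2 over all days and 1 on day 14 between cell types, and 0 in Saos-2 and 0 in Sa/CD99 between days 14 and 0 and 0 in Sa/CD99 between days 14 and 7. For these last 3 comparisons it was also 0 as filed with 75th percentile scaling and, with the labels of the table, 0 with that scaling and 0 with no normalization. With the labels of the table and RMA-type processing it was 1 between cell types on day 0 (11 of all 219 miRNAs), 2 in Saos-2 and 1 in Sa/CD99 between days 7 and 0 (109 and 96 of 219), 3 in Saos-2 and 2 in Sa/CD99 between days 14 and 0 and 0 in Sa/CD99 between days 14 and 7. With the value table scaled to the 75th percentile it was 1 in each cell type between days 14 and 0 (93 of 219 in Saos-2, 136 in Sa/CD99). With no filter, where all 5 members were tested, it was 1 in Saos-2 and 2 in Sa/CD99 between days 7 and 0 (700 and 688 of 851), 3 in Saos-2 between days 14 and 0 (727 of 851) and 0 in Sa/CD99 between days 14 and 7. Between cell types on day 14 it was 1 with quantile normalization (24 of 219), 1 on miRNAs detected on all arrays (7 of 100) and 1 with the replicate block (20 of 219), and with quantile normalization it was 3 in Sa/CD99 between days 14 and 0 (161 of 219). Without Saos-2 replicate 2, an alternative chosen after the data were seen like that with no normalization and that of days 0 and 14 alone, it was 1 between days 7 and 0 (107 of 219), 2 between days 14 and 7 (94 of 219) and 3 between days 14 and 0 (183 of 219) in Sa/CD99.

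With the replicate number as a block (consensus correlation 0.12), hsa-miR-30c between cell types on day 14 was called at -2.27, and no other member call changed. Leaving out 1 array at a time, the members called were 0 to 1 between cell types on day 14, 0 to 1 over all days, 0 to 1 in each cell type between days 7 and 0, 0 to 3 in Saos-2 and 2 to 4 in Sa/CD99 between days 14 and 0, and 0 to 1 in Sa/CD99 between days 14 and 7. The values that changed sign were hsa-miR-30d between cell types, -0.005 to 0.264 on day 0, -0.549 to 0.454 on day 7 and -0.273 to 0.062 over all days, hsa-miR-30d in Saos-2 between days 14 and 7, -0.732 to 0.271, and hsa-miR-30b between the same days, -0.851 to 0.697 in Saos-2 and -1.895 to 0.428 in Sa/CD99. A group without 1 array has 1 left, which was assumed to vary like the other groups. Precision is limited by having 2 arrays in each group.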
